A study of Homo sapiens with 9 samples.

Results

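The 8 genes described here encode metallothioneins and the proteins that sense and move zinc in A549 cells, a human lung adenocarcinoma line. They were taken by name from a table of 19257 genes: the metallothioneins MT2A, MT1E, MT1X, MT1F and MT1G, the zinc-sensing transcription factor MTF1, the zinc exporter SLC30A1 and the zinc importer SLC39A10. RNA-seq was made from 9 libraries in 3 groups of 3. OGT_KO cells were transfected with a Lenti-CRISPR-V2 plasmid directed at OGT, the enzyme that adds O-GlcNAc sugars to proteins. TR11B_KO cells received the same plasmid directed at TR11B, the UniProt name of osteoprotegerin, taken here as the gene TNFRSF11B. NC cells, whose genotype label is WT, received the empty plasmid, so that all 3 groups share the parent line and the plasmid backbone. The titles call the 3 samples of a group biological replicates ("biol rep"), but the labels do not state whether they were grown as separate cultures. The p-values below cover only their spread, part or all of which may be technical. The column names of each knockout share 1 stem, GTsg12 for OGT_KO and TBsg1 for TR11B_KO. The effect of its guide or clone cannot be told apart from that of losing the gene.

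Metallothioneins are small cysteine-rich proteins that bind zinc and copper, and cadmium when it is present. Zinc that enters through importers of the SLC39 family binds the zinc fingers of MTF1, which then binds metal response elements, short DNA motifs in the promoters of metallothionein genes and of SLC30A1. SLC30A1 carries zinc out of the cell and the metallothioneins hold it in the cytosol, so that both lower free zinc. SLC39A10 brings zinc in across the plasma membrane, and in mouse and zebrafish cells its gene is repressed through Mtf1 when zinc is plentiful.

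Library totals ranged from 38327508 to 42245970 counts. Levels are given as CPM, counts scaled to the library total with TMM factors that correct for differences in RNA composition, and as the authors' FPKM, fragments scaled to the library total and to gene length. The TMM factor was 0.784 in TR11B_KO replicate 2 and between 0.951 and 1.159 in the other libraries, so that library stood apart. Of the keratins and adhesion genes used as markers of simple epithelium, 5 of 6 had a count in some library, with a summed level of 11500 to 14600 CPM in OGT_KO, 16400 to 25800 CPM in TR11B_KO and 20000 to 22600 CPM in NC. CDH1 was at 0 counts in all libraries and EPCAM at 2 or fewer, both of them defining epithelial genes. KRT19 had 12 counts over the 3 OGT_KO libraries, 45 over TR11B_KO and 17 over NC. The sums were thus carried by KRT7, KRT8 and KRT18. Markers of blood, endothelial, stromal and muscle cells summed to at most 6.38 CPM in any library. OGT itself averaged 24.1 ± 3.74 CPM in OGT_KO, 13.6 ± 2.98 CPM in TR11B_KO and 27.1 ± 2.45 CPM in NC (SD, n = 3 each). OGT_KO and NC were not called different by edgeR's quasi-likelihood test, with an adjusted p of 0.607, while OGT was lower in TR11B_KO than in NC (log2 fold change −0.99, adjusted p = 0.00393, edgeR) and lower in each TR11B_KO library than in any OGT_KO library. TNFRSF11B had 1 count over the 3 OGT_KO libraries, 4 over the 3 TR11B_KO libraries and 31 over the 3 NC libraries, too few to be tested and low in both knockouts. Without a correction for gene length, described below, OGT mRNA was thus not lowest in OGT_KO. So few counts cannot tell the knockouts apart for TNFRSF11B, so the mRNA of the targeted genes does not check the labels. OGT_KO and TR11B_KO below mean the libraries so labelled.

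Promoter windows were searched for the core of the metal response element, since the metallothioneins and SLC30A1 are targets of MTF1. The motif was searched as TGCACNC and TGCGCNC on both strands in the RefSeq promoter windows of GRCh38.p14, which run from 250 bases before to 50 bases after a gene's start, and matches are in capitals (GTGTGCA and the like are matches on the other strand). The windows of 5 of the 8 genes were in the table, and the 3 with at least 2 matches are shown, MT2A (chr16:56608334-56608633, plus strand), MT1X (chr16:56682220-56682519, plus strand) and SLC30A1 (chr1:211579112-211579411, minus strand).
MT2A promoter: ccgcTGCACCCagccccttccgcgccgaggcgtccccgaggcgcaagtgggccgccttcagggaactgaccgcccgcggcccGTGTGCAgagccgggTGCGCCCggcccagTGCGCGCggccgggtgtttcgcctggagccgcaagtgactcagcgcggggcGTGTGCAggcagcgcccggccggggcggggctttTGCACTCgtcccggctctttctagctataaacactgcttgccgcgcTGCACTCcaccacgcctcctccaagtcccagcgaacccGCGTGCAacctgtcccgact
MT1X promoter: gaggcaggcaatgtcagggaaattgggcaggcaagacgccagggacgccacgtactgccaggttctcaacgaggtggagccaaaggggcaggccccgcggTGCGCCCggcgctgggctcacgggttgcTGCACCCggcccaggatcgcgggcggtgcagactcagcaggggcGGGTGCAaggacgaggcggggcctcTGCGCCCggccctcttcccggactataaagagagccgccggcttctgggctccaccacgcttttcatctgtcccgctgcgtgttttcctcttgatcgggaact
SLC30A1 promoter: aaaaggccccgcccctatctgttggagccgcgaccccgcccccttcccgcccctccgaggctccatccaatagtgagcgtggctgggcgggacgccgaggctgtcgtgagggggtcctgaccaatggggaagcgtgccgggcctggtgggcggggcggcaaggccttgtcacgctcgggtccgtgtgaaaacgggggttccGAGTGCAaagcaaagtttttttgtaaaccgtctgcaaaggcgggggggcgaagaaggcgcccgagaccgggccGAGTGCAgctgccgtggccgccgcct
MT2A's window held 8 matches, 5 on the gene's strand and 3 on the other. MT1X's held 4, of which 1 was on the other strand, and SLC30A1's held 2, both on the other strand. The MTF1 window held 0, and the 2 windows of SLC39A10, chr2:195656708-195657007 and chr2:195656976-195657275, held 0 and 1. Both lie inside the gene's span, which begins at 195613029, so the outermost start of SLC39A10 was not searched. Among all 35116 promoters in the table, 29.6% held at least 1 match, 8.6% at least 2, 0.601% at least 4, and 0.0199%, or 7 promoters, at least 8. A match is a run of letters and not a measured binding site.

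All 5 metallothionein genes lie in 1 cluster on chromosome 16 of GRCh38.p14. MT2A at 56608584-56609497 and MT1X at 56682470-56684196 are the outermost of the 5, with MT1E (56625781-56627112), MT1F (56657959-56659303) and MT1G (56666730-56668065) between them. MTF1 lies at chr1:37809574-37859592, SLC30A1 at chr1:211571568-211579161 and SLC39A10 at chr2:195613029-195737700. The coding sequences of the 5 metallothioneins were 186 bases long each and 88.7% to 95.2% identical over the 10 pairs, so short reads could be split between copies. The reading frames of MT2A and MT1X, the 2 metallothioneins called in OGT_KO against TR11B_KO, are printed to show how alike the copies are, from the GENCODE transcripts MT2A-201 (within chr16:56608656-56609354) and MT1X-201 (within chr16:56682541-56684049), with the 14 bases that differ in capitals.
MT2A coding sequence: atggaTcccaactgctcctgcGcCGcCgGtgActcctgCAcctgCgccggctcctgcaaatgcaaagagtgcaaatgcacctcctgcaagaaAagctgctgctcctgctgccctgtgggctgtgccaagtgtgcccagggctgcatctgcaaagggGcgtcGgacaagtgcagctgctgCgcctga
MT1X coding sequence: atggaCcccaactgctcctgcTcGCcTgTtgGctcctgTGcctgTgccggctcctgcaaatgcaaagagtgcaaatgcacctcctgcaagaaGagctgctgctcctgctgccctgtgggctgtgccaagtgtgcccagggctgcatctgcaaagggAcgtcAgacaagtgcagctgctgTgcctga
Of all 50-base windows of the MT1X transcript, 45.1% occurred in a transcript of another gene, against 20.2% for MT1G and 3.59% to 5.34% for MT1E, MT1F and MT2A. These shares are over GENCODE transcripts of 786 bases for MT2A and 690 for MT1F, longer than the 401 and 467 bases of the deposited table. The share within the counted gene may thus be larger for these 2. Of 100-base windows, 19.1% of MT1X's occurred elsewhere, in a transcript of the gene AC026461.1, and 0 of the windows of the other 4. Windows were matched on either strand, and the strand of a match was not recorded. The sources used here give neither the read length nor the treatment of reads with several matches, so how the shared reads of MT1X were assigned is not known.

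MT2A was the dominant metallothionein message. Its level was 1950, 1719 and 2150 CPM in OGT_KO, 4278, 4780 and 4129 CPM in TR11B_KO, and 2349, 2210 and 2736 CPM in NC. The 3 groups did not overlap, with TR11B_KO highest and OGT_KO lowest. MT1E, the next in level, had 293.8, 269.5 and 256.1 CPM in OGT_KO, 230.8, 233 and 200.4 CPM in TR11B_KO, and 347.3, 344.2 and 395.8 CPM in NC. Here NC was highest and TR11B_KO lowest, again with no overlap.

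MT1X had 23.9, 28.07 and 24.02 CPM in OGT_KO, 67.73, 59.77 and 64.22 CPM in TR11B_KO, and 50.14, 51.97 and 48.54 CPM in NC. Each OGT_KO library was below each NC library, and each TR11B_KO library above. MT1F was scarce, at 1.728, 0.7428 and 1.785 CPM in OGT_KO, 2.594, 3.643 and 2.074 CPM in TR11B_KO, and 1.147, 2.095 and 1.712 CPM in NC, from 33 to 113 counts a library. The MT1F values of each knockout overlapped those of NC. MT1G had 0, 1 and 1 counts in OGT_KO, 0, 0 and 0 counts in TR11B_KO, and 0, 0 and 2 counts in NC. It was not tested. In the libraries with 0 counts, 3 counts, the limit that a count of 0 allows, corresponded to 0.0682 to 0.0967 CPM.

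MTF1, the sensor, had 2.683, 3.287 and 2.404 CPM in OGT_KO, 2.118, 2.901 and 2.023 CPM in TR11B_KO, and 2.174, 1.648 and 2.376 CPM in NC. The OGT_KO libraries lay just above the NC libraries, and the TR11B_KO libraries overlapped both. SLC30A1, the exporter, had 8.459, 8.464 and 5.403 CPM in OGT_KO, 9.568, 4.288 and 6.607 CPM in TR11B_KO, and 5.614, 6.59 and 6.003 CPM in NC. Its spread was widest in TR11B_KO, where replicate 2 was lowest, and all groups overlapped. SLC39A10, the importer, had 2.479, 2.994 and 2.095 CPM in OGT_KO, 1.095, 0.548 and 1.101 CPM in TR11B_KO, and 1.457, 1.2 and 1.66 CPM in NC. The groups did not overlap, and their order was opposite to that of MT2A, with OGT_KO highest and TR11B_KO lowest.

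**Figure D1:**
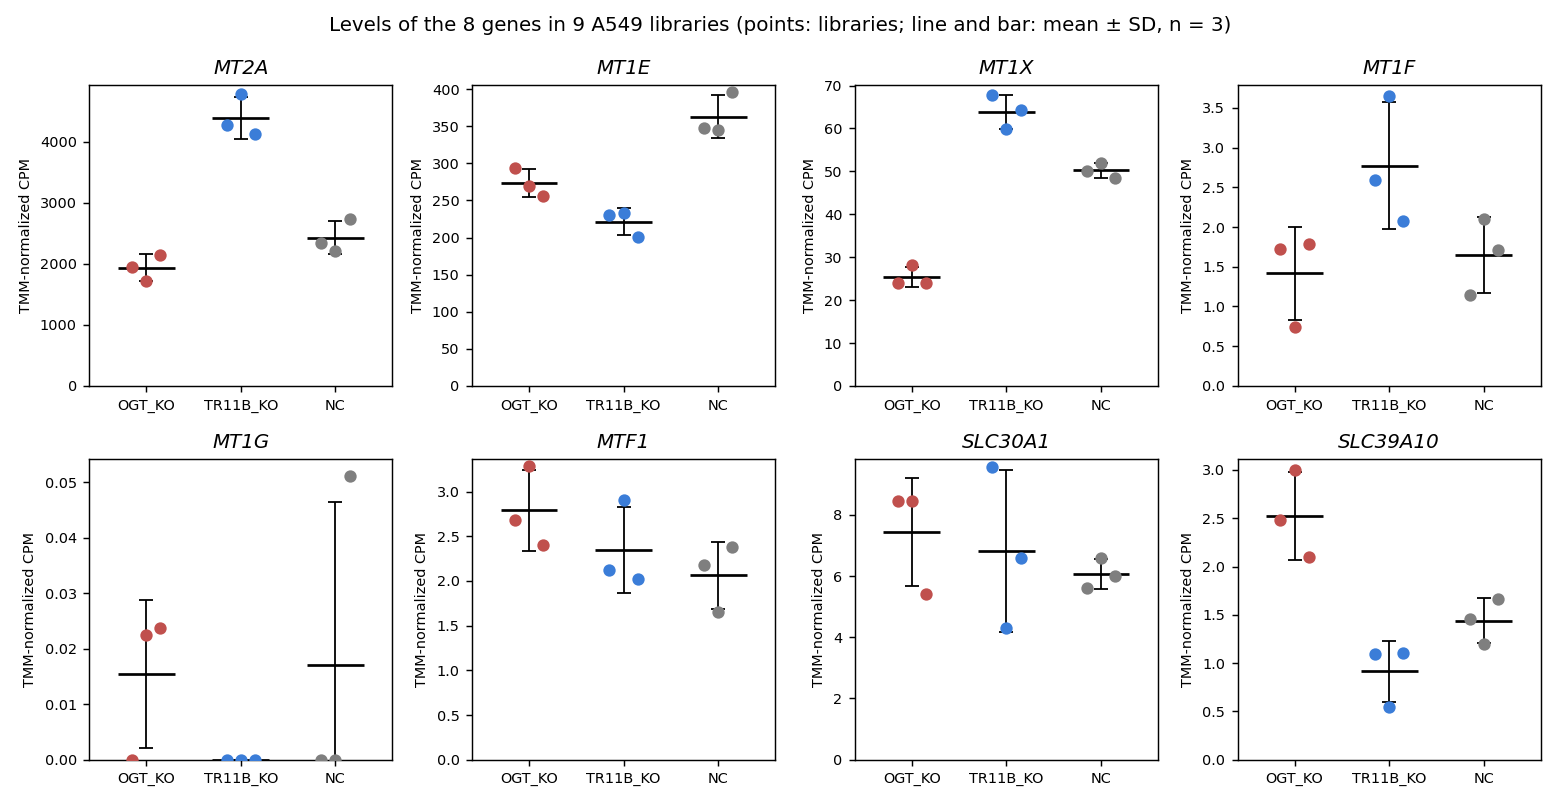
TMM-normalized CPM (y axes, from 0) of the 8 genes by group (x axes) in 9 A549 libraries; points are libraries, lines and bars are the mean ± SD of 3 libraries. MT2A and MT1X were highest in TR11B_KO and lowest in OGT_KO, SLC39A10 was highest in OGT_KO and lowest in TR11B_KO, and MT1E was highest in NC.

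Per length, the order of the genes was the same in the 3 groups. MT2A averaged 5270 ± 352 FPKM in OGT_KO, 9940 ± 685 FPKM in TR11B_KO and 6120 ± 699 FPKM in NC (SD, n = 3 each). MT1E followed at 400 ± 32.8 FPKM in OGT_KO, 270 ± 35 FPKM in TR11B_KO and 490 ± 40 FPKM in NC, and MT1X at 68.7 ± 10.2 FPKM in OGT_KO, 145 ± 26.5 FPKM in TR11B_KO and 125 ± 3.96 FPKM in NC. MT1F averaged 3.27 ± 1.24 FPKM in OGT_KO, 5.3 ± 0.974 FPKM in TR11B_KO and 3.57 ± 1.02 FPKM in NC, above SLC30A1 at 1.39 ± 0.37 FPKM in OGT_KO, 1.09 ± 0.529 FPKM in TR11B_KO and 1.04 ± 0.0812 FPKM in NC. MTF1 averaged 0.346 ± 0.0747 FPKM in OGT_KO, 0.238 ± 0.0199 FPKM in TR11B_KO and 0.235 ± 0.0434 FPKM in NC. SLC39A10 was the lowest of the tested genes, at 0.251 ± 0.0581 FPKM in OGT_KO, 0.0777 ± 0.0337 FPKM in TR11B_KO and 0.132 ± 0.0214 FPKM in NC. MTF1 and SLC39A10 overlapped in OGT_KO, and every other pair of neighbours in this order was separate in each group.

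In OGT_KO against NC, MT1X fell, and it was the single gene of the 7 tested that was called. Its log2 fold change was −0.99 ± 0.16 (SE), a fold of 0.504, with an adjusted p of 0.00104 by edgeR's quasi-likelihood test with Benjamini-Hochberg adjustment over 12574 genes. A call means an adjusted p under 0.05, which 18.3% of all tested genes reached in this comparison, 8.26% as higher and 10.1% as lower. The split over all genes turned with the scaling, 1039 higher and 1264 lower with TMM factors but 1369 higher and 890 lower with library totals alone, which moved the median log2 fold change of all genes to 0.147. MT1E and MT2A were lower in all 3 OGT_KO libraries than in any NC library without being called, with log2 fold changes of −0.41 ± 0.16 (SE; adjusted p = 0.0849, edgeR) and −0.33 ± 0.16 (SE; adjusted p = 0.175, edgeR). SLC39A10 at 0.81 ± 0.32 (SE; adjusted p = 0.0923, edgeR) and MTF1 at 0.44 ± 0.27 (SE; adjusted p = 0.277, edgeR) lay above NC in all 3 libraries, and MT1F and SLC30A1 overlapped NC. In all, the libraries of 5 of the 7 genes did not overlap, as for 49.8% of all tested genes. The median log2 fold change of the 7 was −0.22, beside 0.033 for all genes.

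MT1X was called under all 22 alternative settings and left-out libraries, with log2 fold changes between −1.21 and −0.87. Without TR11B_KO replicate 2, a library of neither group that enters through the gene filter and the estimates shared over all 9 libraries, 4 of the 7 genes were called: MT1X, MT1E at −0.41 (adjusted p = 0.0102, edgeR) and MT2A at −0.32 (adjusted p = 0.0391, edgeR) as lower, and SLC39A10 at 0.81 (adjusted p = 0.0305, edgeR) as higher. Over all genes, 4536 of 12827 were called without that library, against 2303 of 12574 with all 9. The added calls thus came with many more calls over the whole table, at nearly unchanged fold changes. Of the simple-epithelium markers, KRT8 and KRT18 were called lower in OGT_KO than in NC, with log2 fold changes of −0.99 and −0.93, 2 of the 4 that could be tested, and lower than in TR11B_KO, at −0.78 and −1.06. KRT7 went the other way, at 0.40 against NC (adjusted p = 0.138, edgeR), with each OGT_KO library above each NC library. KRT19, at few counts, overlapped NC at −0.58 (adjusted p = 0.731, edgeR). The markers thus did not move together. The part of these markers in the results was not tested, and in bulk RNA fewer cells of a type and less RNA per cell cannot be told apart.

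In TR11B_KO against NC, the 2 most abundant metallothioneins changed in opposite directions. MT2A was higher, with a log2 fold change of 0.85 ± 0.16 (SE), a fold of 1.81 (adjusted p = 0.00211, edgeR). MT1E was lower at −0.71 ± 0.16 (SE), a fold of 0.611 (adjusted p = 0.00502, edgeR). These were the 2 called among 7 genes, where 27.6% of all tested genes were called, 13.2% as higher and 14.3% as lower. Library totals alone gave 1180 higher and 2030 lower over all genes in place of 1666 and 1803, with a median of −0.152. MT1X at 0.35 ± 0.16 (SE; adjusted p = 0.118, edgeR) lay above NC in every library, and SLC39A10 at −0.64 ± 0.33 (SE; adjusted p = 0.169, edgeR) below. MT1F had a log2 fold change of 0.74 ± 0.37 (SE; adjusted p = 0.146, edgeR), and MTF1 and SLC30A1 stood at 0.18 ± 0.27 and 0.17 ± 0.29 (SE), overlapping NC. The libraries of 4 of the 7 genes did not overlap those of NC, as for 40.9% of all genes, and the median of the 7 was 0.181, beside −0.01 for all genes.

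MT1E was called lower in TR11B_KO under all 22 alternatives, with values between −1.30 and −0.65. MT2A was called under 19 of 22, and the 3 that ended the call were the fits with a correction for gene length, which brought its log2 fold change to between 0.07 and 0.24. Without TR11B_KO replicate 2, MT1X was also called higher, at 0.43 (adjusted p = 0.0229, edgeR). Over all genes, 4386 of 12827 were called without that library, against 3469 of 12574 with it.

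In the direct comparison of OGT_KO against TR11B_KO, 2 metallothioneins were lower in OGT_KO and the importer was higher. MT1X was lower by a log2 fold change of −1.34 ± 0.16 (SE), a fold of 0.396 (adjusted p = 5.37e-05, edgeR). MT2A was lower by −1.18 ± 0.16 (SE), a fold of 0.441 (adjusted p = 0.000153, edgeR). SLC39A10 was higher by 1.45 ± 0.33 (SE), a fold of 2.73 (adjusted p = 0.00454, edgeR), from 88 to 133 counts in an OGT_KO library and 17 to 46 in a TR11B_KO library. These 3 of 7 were called, where 33.2% of all tested genes were, 16.7% as higher and 16.5% as lower. That even split held with TMM factors, while library totals alone gave 3084 higher and 1268 lower, with a median of 0.314 over all genes. MT1F at −0.96 ± 0.37 (SE; adjusted p = 0.058, edgeR) was below in all libraries and MT1E at 0.30 ± 0.16 (SE; adjusted p = 0.151, edgeR) above, so that 5 of 7 genes did not overlap, as for 44.9% of all genes. MTF1 and SLC30A1, with log2 fold changes of 0.25 ± 0.27 and 0.12 ± 0.28 (SE), overlapped. The median of the 7 was 0.122, beside 0.056 for all genes.

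MT1X and MT2A were called in this comparison under all 22 alternatives, with values of −1.41 to −0.75 for MT1X and −1.26 to −0.60 for MT2A. SLC39A10 was called under 20 of 22, and the length correction left 0.92 (adjusted p = 0.0425, edgeR), while the 2 fits that ended the call were those that added GC content, at 0.78 (adjusted p = 0.0625, edgeR), or the replicate block, at 0.97 (adjusted p = 0.0564, edgeR). It was thus called in 1 of the 3 length-corrected fits. On the log2(FPKM + 1) scale, which understates low genes, limma gave 0.21 for SLC39A10. The comparisons of each knockout with NC share the NC libraries, so their values stand side by side here and were not correlated.

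**Figure D2:**
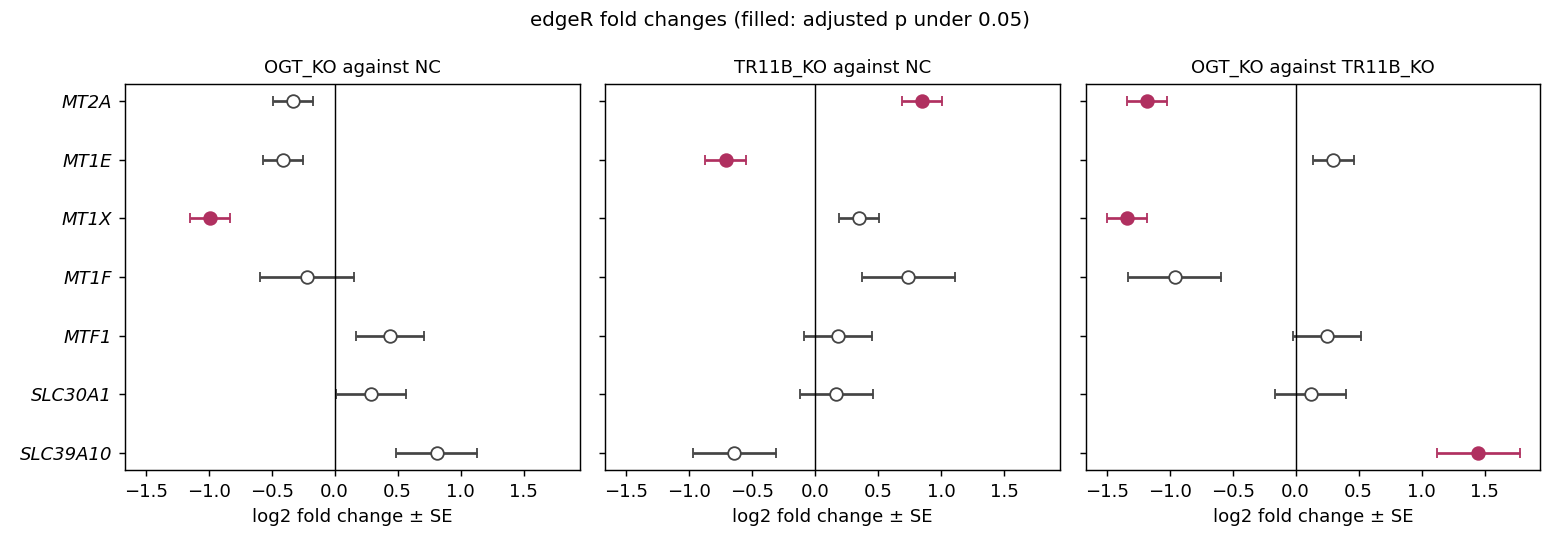
Log2 fold changes (x axes, points with bars of ± SE) of the 7 tested genes (rows) from edgeR in OGT_KO against NC, TR11B_KO against NC and OGT_KO against TR11B_KO (panels); filled points have an adjusted p under 0.05. Filled points are MT1X at −0.99 in the first panel, MT2A at 0.85 and MT1E at −0.71 in the second, and MT2A, MT1X and SLC39A10 in the third.

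The summed level of the 5 metallothioneins was 2270, 2018 and 2432 CPM in OGT_KO, 4579, 5076 and 4395 CPM in TR11B_KO, and 2748, 2609 and 3182 CPM in NC. OGT_KO libraries were below and TR11B_KO libraries above every NC library. As a share of all counts, metallothioneins took 0.242%, 0.234% and 0.257% of an OGT_KO library, 0.459%, 0.398% and 0.418% of a TR11B_KO library, and 0.278%, 0.262% and 0.322% of an NC library. The fold of the mean sums was 0.787 for OGT_KO over NC, 1.65 for TR11B_KO over NC and 0.478 for OGT_KO over TR11B_KO. A two-sided exact permutation test over libraries gave p = 0.1 for each, the smallest value that 3 against 3 allows. On the log2 scale the sum in TR11B_KO over NC was 0.72, where tested genes of at most 800 bases had a median of 0.7. MT2A, the bulk of the sum, stood at 0.07 in that comparison with the correction for gene length described below. The sum was not recomputed with that correction, so its rise carries the same limit.

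The make-up of that sum differed in TR11B_KO. Per length, MT2A made up 91.7 ± 1.09% of metallothionein FPKM in OGT_KO, 96 ± 0.275% in TR11B_KO and 90.8 ± 0.494% in NC (SD, n = 3 each). MT1E made up 7 ± 0.919% in OGT_KO, 2.6 ± 0.151% in TR11B_KO and 7.29 ± 0.239% in NC. MT1X made up 1.2 ± 0.235% in OGT_KO, 1.39 ± 0.173% in TR11B_KO and 1.88 ± 0.253% in NC, and MT1F under 0.06% in each group.

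The ratio of MT2A to MT1E FPKM was 12.3, 11.9 and 15.6 in OGT_KO, 34.5, 38.2 and 38.3 in TR11B_KO, and 12.6, 11.9 and 12.9 in NC. It was 2.97-fold higher in TR11B_KO than in NC with no overlap (two-sided exact permutation p = 0.1, the smallest possible), while OGT_KO overlapped NC (exact permutation p = 0.9). The ratio of MT2A to MT1X FPKM was 82.2, 61.7 and 90.2 in OGT_KO, 63.6, 80.6 and 64.8 in TR11B_KO, and 47.2, 42.8 and 56.8 in NC. Both knockouts lay above NC on this ratio (exact permutation p = 0.1 each) and overlapped each other (exact permutation p = 0.6).

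**Figure D3:**
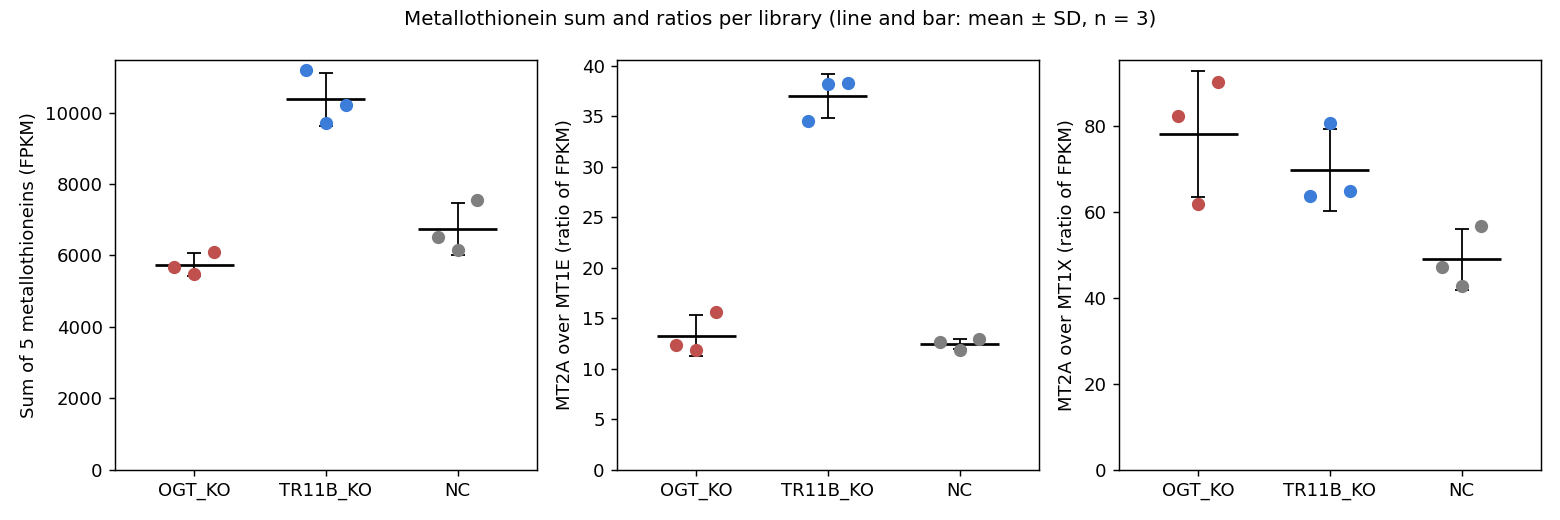
The sum of 5 metallothioneins in FPKM and the ratios of MT2A to MT1E and of MT2A to MT1X in FPKM (y axes, from 0) by group (x axes) in each library; lines and bars are the mean ± SD of 3 libraries. The ratio of MT2A to MT1E lies between 34.5 and 38.3 in TR11B_KO and between 11.9 and 15.6 in the other groups.

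Gene length moved with the fold changes of TR11B_KO, and the metallothioneins are among the shortest genes. The lengths in the deposited table were 401 bases for MT2A, 404 for MT1X, 467 for MT1F and 746 for MT1E, against 5893 for SLC30A1, 8872 for MTF1 and 11039 for SLC39A10. Across the 12574 tested genes, the rank correlation between length and log2 fold change (Spearman) was 0.066 in OGT_KO against NC, −0.313 in TR11B_KO against NC and 0.333 in OGT_KO against TR11B_KO, as a description over genes that are not independent. The 411 tested genes under 800 bases had a median log2 fold change of 0.18 in OGT_KO against NC, 0.70 in TR11B_KO against NC and −0.52 in OGT_KO against TR11B_KO. MT2A's 0.85 in TR11B_KO was therefore close to the median of genes of its size, while MT1E's −0.71 lay on the other side of 0 from that median.

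With a length curve removed from each library before the test, MT2A in TR11B_KO against NC stood at 0.07 (adjusted p = 0.794, edgeR), MT1X turned to −0.44 (adjusted p = 0.0761, edgeR) and MT1E stood at −1.29 (adjusted p = 0.000283, edgeR). In OGT_KO against NC the same correction gave −1.21 for MT1X (adjusted p = 0.000437, edgeR), −0.56 for MT1E (adjusted p = 0.0273, edgeR) and −0.55 for MT2A (adjusted p = 0.0331, edgeR), so that all 3 were called lower. Between the knockouts it gave −0.77 for MT1X (adjusted p = 0.00447, edgeR), −0.62 for MT2A (adjusted p = 0.0126, edgeR) and 0.73 for MT1E (adjusted p = 0.00453, edgeR). The rise of MT2A in TR11B_KO thus depended on the length setting, while the lower MT1X in OGT_KO, the lower MT1E in TR11B_KO and the lower MT1X and MT2A of OGT_KO against TR11B_KO were called with and without it. Whether the length trend came from the RNA, the library or the cells was not tested.

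**Figure D4:**
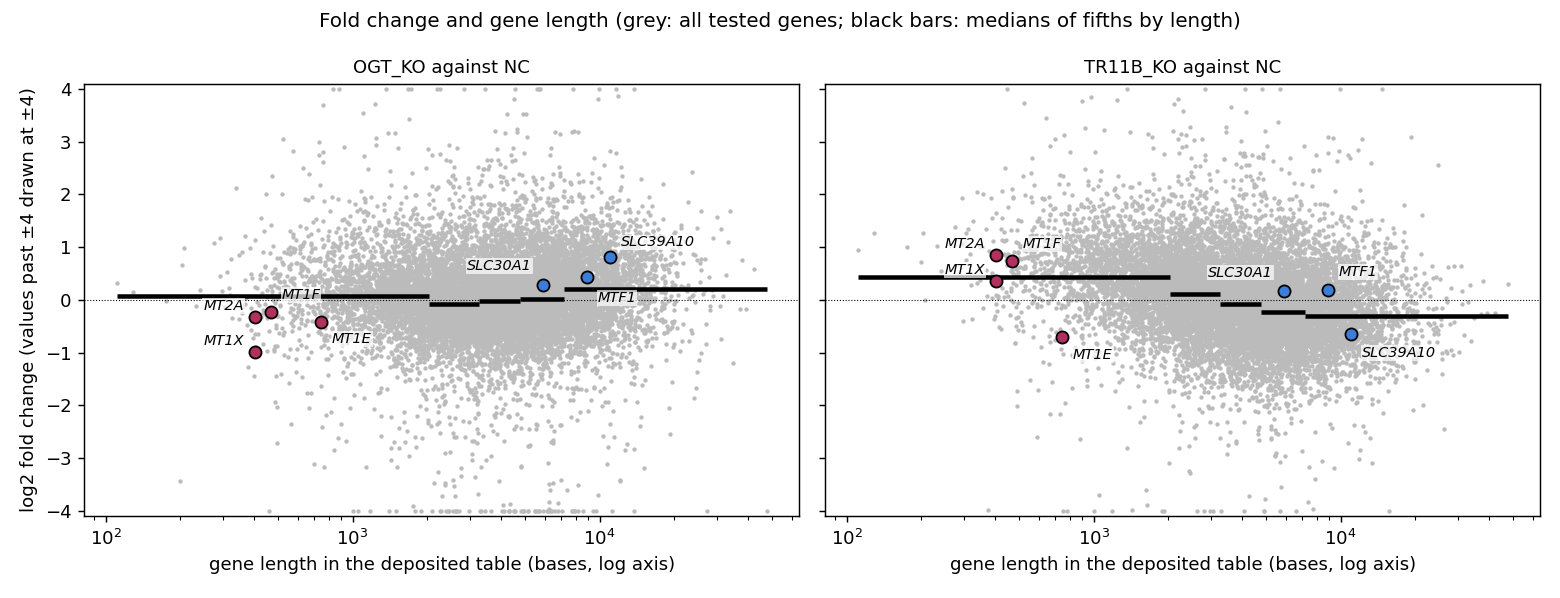
Log2 fold change (y axes, values past 4 or −4 drawn at the edge) against gene length in bases (x axes, log scale) for OGT_KO against NC and TR11B_KO against NC; grey points are the 12574 tested genes, black bars the medians of 5 bins by length, red points metallothioneins and blue points MTF1, SLC30A1 and SLC39A10. In TR11B_KO the medians of the 5 bins fall with length, between 0.43 in the shortest and −0.31 in the longest, with MT2A above the first bar and MT1E below it.

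Other metallothioneins added 1 tested gene. Of 12 family members listed, 9 were in the table and 5 were tested, which besides the genes above meant MT1M. MT1M, a close copy of the other MT1 genes, had 1.364, 0.7428 and 1.023 CPM in OGT_KO, 2.666, 1.709 and 2.51 CPM in TR11B_KO, and 2.676, 2.754 and 3.142 CPM in NC. Its OGT_KO libraries were below all others. It was called lower in OGT_KO against NC, with a log2 fold change of −1.45 ± 0.30 (SE; adjusted p = 0.005, edgeR), and under all 22 alternatives. Against TR11B_KO it was lower by −1.14 ± 0.30 (SE; adjusted p = 0.0108, edgeR), a call lost with the length correction, at −0.58 (adjusted p = 0.143, edgeR), and without OGT_KO replicate 2, at −0.94 (adjusted p = 0.0593, edgeR). Of the 5 tested family members, 0 were higher and 2 lower in OGT_KO against NC, 1 higher and 1 lower in TR11B_KO against NC, and 0 higher and 3 lower in OGT_KO against TR11B_KO. Over all tested genes, 8.26% were called higher and 10.1% lower, 13.2% and 14.3%, and 16.7% and 16.5%, in that order. The family's medians were −0.408, 0.348 and −1.139 in the same order, beside 0.033, −0.01 and 0.056 for all genes.

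Among 11 tested zinc importers of the SLC39 family, SLC39A6 stood out in OGT_KO. SLC39A6, which forms a plasma-membrane complex with SLC39A10, had 13.85, 19.11 and 15.64 CPM in OGT_KO, 2.642, 2.934 and 4.2 CPM in TR11B_KO, and 4.611, 3.954 and 5.339 CPM in NC. Every OGT_KO library was above every other library, with a log2 fold change of 1.81 ± 0.24 (SE; adjusted p = 0.000294, edgeR) against NC and 2.31 ± 0.25 (SE; adjusted p = 2.15e-05, edgeR) against TR11B_KO. SLC39A4, the importer mutated in acrodermatitis enteropathica, was the other called in OGT_KO against NC, at 0.72 ± 0.18 (SE; adjusted p = 0.0135, edgeR), so that 2 of 11 importers were higher and 0 lower, where 18.3% of all tested genes were called. Its call was lost without NC replicate 1 or 2 or OGT_KO replicate 1 or 3, with adjusted p between 0.0585 and 0.0842 by edgeR. The importers' median log2 fold change was 0.112, beside 0.033 for all genes.

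In TR11B_KO against NC, 3 importers were called higher and 1 lower of the 11 tested, where 27.6% of all tested genes were called, 13.2% as higher and 14.3% as lower. Their median was 0.241, beside −0.01 for all genes. SLC39A7, which releases zinc from the endoplasmic reticulum, had 191.4, 173.1 and 185.7 CPM in OGT_KO, 333.4, 480.5 and 340.7 CPM in TR11B_KO, and 174.4, 180.8 and 187.4 CPM in NC. Each TR11B_KO library was above all others, at a log2 fold change of 1.09 ± 0.18 (SE; adjusted p = 0.000816, edgeR) against NC. SLC39A14, a plasma-membrane carrier of zinc, iron and manganese, had 28.58, 30.66 and 28.18 CPM in OGT_KO, 15.92, 10.44 and 16.85 CPM in TR11B_KO, and 46.25, 40.72 and 37.12 CPM in NC. It was lower in TR11B_KO than in NC by −1.52 ± 0.21 (SE; adjusted p = 0.000313, edgeR). SLC39A11 at 0.72 ± 0.21 (SE; adjusted p = 0.0197, edgeR) and SLC39A3 at 0.65 ± 0.20 (SE; adjusted p = 0.0288, edgeR) were higher, and each lost its call without any 1 of the 3 NC replicates, at adjusted p of 0.0581 to 0.12 by edgeR.

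Between OGT_KO and TR11B_KO, 3 importers were higher, SLC39A6, SLC39A10 and SLC39A14, and 2 lower, SLC39A7 and SLC39A11, of the 11 tested, where 33.2% of all genes were called. Their median was 0.215, beside 0.056 for all genes. SLC39A14 differed by 1.01 (adjusted p = 0.00221, edgeR), SLC39A7 by −1.07 (adjusted p = 0.000513, edgeR) and SLC39A11 by −0.83 (adjusted p = 0.00776, edgeR), a call lost with library totals alone, at −0.56 (adjusted p = 0.0536, edgeR). SLC39A6, SLC39A7 and SLC39A14 kept each of their calls above under all 22 alternatives. With the length correction, 2 importers were higher and 0 lower in OGT_KO against NC, and 3 higher and 1 lower in TR11B_KO against NC. Without TR11B_KO replicate 2 the counts were 3 higher and 1 lower in OGT_KO, 3 higher and 1 lower in TR11B_KO, and 4 higher and 3 lower between the knockouts. Over all genes, 4536, 4386 and 5308 of 12827 were then called, against 2303, 3469 and 4174 of 12574 with all libraries.

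**Figure D5:**
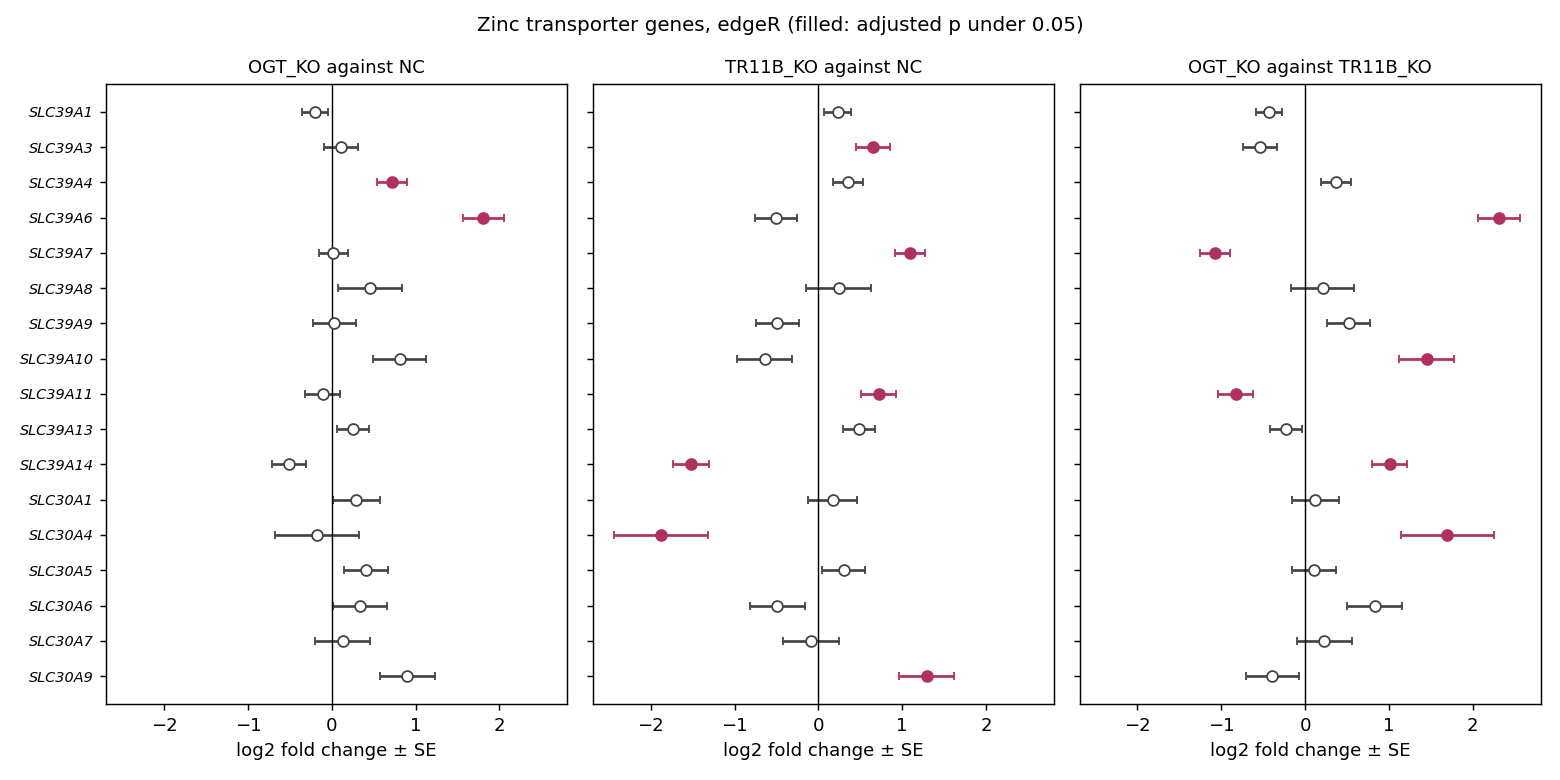
Log2 fold changes (x axes, points with bars of ± SE) from edgeR of the 17 tested zinc transporter genes (rows), SLC39 importers above SLC30 exporters, in the 3 comparisons (panels); filled points have an adjusted p under 0.05. SLC39A6 stands at 1.81 in OGT_KO against NC, and SLC39A7 at 1.09 and SLC39A14 at −1.52 in TR11B_KO against NC.

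Of 6 tested SLC30 zinc exporters, none was called in OGT_KO against NC, where edgeR gave 0 calls at an adjusted p under 0.05 and 1 at an unadjusted p under 0.05, and DESeq2 gave 0. An exporter was called, by edgeR, without TR11B_KO replicate 1 or 2, where 3341 of 12807 and 4536 of 12827 genes were called over all. In TR11B_KO against NC, SLC30A9, which exports zinc from mitochondria, was higher at 1.29 ± 0.33 (SE; adjusted p = 0.0111, edgeR), a call lost without NC replicate 1, at 1.12 (adjusted p = 0.0621, edgeR). SLC30A9 had 2.456, 2.364 and 2.666 CPM in OGT_KO, 2.713, 5.029 and 2.125 CPM in TR11B_KO, and 1.003, 1.53 and 1.482 CPM in NC, and without TR11B_KO replicate 2, its highest library, the log2 fold change was 0.88. SLC30A4, which loads zinc into vesicles, was lower at −1.88 ± 0.56 (SE; adjusted p = 0.0227, edgeR) and higher in OGT_KO than in TR11B_KO at 1.70 ± 0.56 (SE; adjusted p = 0.0305, edgeR). Its counts were few, 32 to 35 in an OGT_KO library, 4 to 15 in a TR11B_KO library and 29 to 50 in an NC library, and the length correction ended both calls, at −1.56 (adjusted p = 0.0631, edgeR) and 1.23 (adjusted p = 0.122, edgeR). The first call was also lost without NC replicate 2 or TR11B_KO replicate 1 or 3, and the second without any 1 OGT_KO replicate or TR11B_KO replicate 1 or 3, at adjusted p of 0.0604 to 0.104 by edgeR. Without TR11B_KO replicate 2, SLC30A4 stood at −2.76 and 2.58. The exporters' medians were 0.319 in OGT_KO against NC, 0.039 in TR11B_KO against NC and 0.175 in OGT_KO against TR11B_KO. For all tested genes they were 0.033, −0.01 and 0.056, and 18.3%, 27.6% and 33.2% of those genes were called.

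Genes that handle copper, a metal that metallothioneins also bind, were called in both directions. Their medians were −0.081 in OGT_KO against NC, 0.155 in TR11B_KO against NC and −0.147 in OGT_KO against TR11B_KO, beside 0.033, −0.01 and 0.056 for all genes. Of 11 tested, 0 were higher and 1 lower in OGT_KO against NC, 3 higher and 2 lower in TR11B_KO against NC, and 1 higher and 4 lower in OGT_KO against TR11B_KO, where 18.3%, 27.6% and 33.2% of all tested genes were called. SOD1, the copper and zinc superoxide dismutase, had 78.68, 77.21 and 73.64 CPM in OGT_KO, 281.4, 157.4 and 230.1 CPM in TR11B_KO, and 114.6, 104.5 and 106.6 CPM in NC. The TR11B_KO libraries were above and the OGT_KO libraries below all NC libraries. In TR11B_KO against NC, SOD1 at 1.04 ± 0.20 (SE; adjusted p = 0.00203, edgeR) and its copper chaperone CCS at 1.28 ± 0.24 (SE; adjusted p = 0.00186, edgeR) were higher, and with the length correction they stood at 0.51 (adjusted p = 0.0754, edgeR) and 0.84 (adjusted p = 0.024, edgeR). SCO2 was the third called higher, with its TR11B_KO libraries overlapping those of NC, and it was called under 8 of 22 alternatives. With the length correction it stood at 0.52 (adjusted p = 0.201, edgeR). The exporter ATP7B and the copper chaperone SCO1 were called lower. SCO1, which serves cytochrome oxidase, was also the gene called lower in OGT_KO, at −1.07 ± 0.30 (SE; adjusted p = 0.0225, edgeR), a call lost without any 1 NC replicate or without OGT_KO replicate 1 or 3. Against TR11B_KO, OGT_KO was higher for ATP7B and lower for SOD1, CCS, COMMD1 and SCO2. The calls of SOD1 and CCS held under all 22 alternatives. Those of SCO2 and ATP7B were lost with the length correction, at −0.64 (adjusted p = 0.106, edgeR) and 0.57 (adjusted p = 0.15, edgeR). Between the knockouts, SCO2 was called under 13 of 22 and also lost its call without OGT_KO replicate 1 or 2. COMMD1 was called under 17 there and lost its call without OGT_KO replicate 1 and with library totals alone.

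Genes of 3 programmes that can also induce metallothioneins were examined next, beside shares over all tested genes of 8.26% higher and 10.1% lower in OGT_KO against NC, 13.2% and 14.3% in TR11B_KO against NC, and 16.7% and 16.5% between the knockouts. Among 10 glutathione and NRF2 target genes, 1 was higher and 1 lower in OGT_KO, and 0 were higher and 2 lower in TR11B_KO. The quinone reductase NQO1 was lower in both, at −0.88 ± 0.17 in OGT_KO (SE; adjusted p = 0.00346, edgeR) and −1.02 ± 0.17 in TR11B_KO (SE; adjusted p = 0.00107, edgeR), while TXNRD1 was higher in OGT_KO and GCLM lower in TR11B_KO. Among 8 heat shock genes, 1 was higher and 2 lower in OGT_KO, HSPB1, DNAJB1 and HSPA8, and 0 were higher and 4 lower in TR11B_KO, DNAJB1, HSPA8, HSPH1 and BAG3. The cochaperone DNAJB1 stood at −1.38 ± 0.17 in OGT_KO (SE; adjusted p = 0.000172, edgeR) and −1.63 ± 0.18 in TR11B_KO (SE; adjusted p = 7.5e-05, edgeR). Among 6 tested glucocorticoid-responsive genes, the kinase SGK1 was lower in OGT_KO at −1.68 ± 0.32 (SE; adjusted p = 0.00285, edgeR), and SGK1 and the receptor NR3C1 were lower in TR11B_KO. In OGT_KO against TR11B_KO, the glutathione, heat shock and glucocorticoid groups had 1, 2 and 1 genes higher and 0 lower, TXNRD1, HSPB1 and HSPH1, and NR3C1. The medians of the glutathione group were 0.056 in OGT_KO against NC, 0.077 in TR11B_KO against NC and 0.13 between the knockouts. Those of the heat shock group were −0.368, −0.701 and 0.279 in the same order of comparisons, and those of the glucocorticoid group −0.2, −0.532 and −0.045.

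NQO1 and DNAJB1 kept both calls, and SGK1 in OGT_KO and HSPH1 their calls, under all 22 alternatives. TXNRD1, HSPB1 and HSPA8 in OGT_KO were called under 10, 13 and 7 of 22 and each lost its call without any 1 NC or OGT_KO replicate, TXNRD1 and HSPA8 also without TR11B_KO replicate 3. In TR11B_KO, calls were lost for SGK1 without NC replicate 1 or 2 or OGT_KO replicate 3, for NR3C1 without NC replicate 2 or 3 or TR11B_KO replicate 1 or 3, for GCLM without any 1 NC replicate or TR11B_KO replicate 3, for BAG3 without NC replicate 1 or 2, and for SCO2 without NC replicate 1 or 2 or any 1 OGT_KO replicate. In OGT_KO against TR11B_KO, HSPB1 and HSPH1 were called under all 22 alternatives. TXNRD1 was called under 11, losing its call with the length correction, at 0.68 (adjusted p = 0.0645, edgeR), and without any 1 NC replicate, OGT_KO replicate 2 or 3 or TR11B_KO replicate 3. NR3C1 was called under 14, losing its call with the length correction, at 0.32 (adjusted p = 0.462, edgeR), and without OGT_KO replicate 2 or 3 or TR11B_KO replicate 1 or 3. With the length correction, 0 glucocorticoid-responsive genes were called in TR11B_KO against NC, and GCLM lost its call there, at −0.66 (adjusted p = 0.0907, edgeR).

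Over the 9 libraries, MT2A varied with MT1X (Pearson's r = 0.808 of log2 CPM) and with MT1F (r = 0.786), but not in the same direction as MT1E (r = −0.562). SLC39A10 varied opposite to MT2A (r = −0.873), MT1X (r = −0.825) and MT1F (r = −0.821). These values describe 9 libraries from 3 groups, which are not 9 independent samples. They come from log2 CPM with no correction for gene length. SLC39A10 has 11039 bases, and MT2A, MT1X and MT1F have 401, 404 and 467. In TR11B_KO against NC, the median log2 fold change of tested genes was 0.43 in the shortest length bin and −0.31 in the longest. In OGT_KO against NC those medians were 0.08 and 0.21. Whether these correlations hold with a length correction was not tested. Among 7017 genes searched, those most like the summed metallothionein level were CAPG (r = 0.994), ZNF696 (r = 0.993), SDHAF1 (r = 0.992), ANKS3 (r = 0.992) and ISCA2 (r = 0.99). The genes most like SLC39A10 were STX16 (r = 0.993), RNF145 (r = 0.969) and PHF20 (r = 0.968).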

How the data were processed

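Per the labels' protocols, TRIzol RNA was used with the VAHTS Universal V6 library kit. Per the submitters' processing notes, fastp, HISAT, HTSeq, R 3.2.0 and DESeq2 were used with the GRCh38 build, and the sources used here give neither strand nor settings nor read length. The deposited count table holds whole reads per gene, not normalized, and the authors' FPKM table scales them to gene length and library total. Gene length was taken from the ratio of the deposited values.

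Titles gave each sample's group and replicate number. The 8 genes and all gene lists were chosen with earlier results of these data known. Beside the 8 genes and the 2 targeted genes, up to 4 called genes of each list were named by smallest adjusted p, plus those that a small count needs, and the genes most like a profile by Pearson's r among genes averaging at least 2 in log2 CPM. Counts were tested in edgeR 4.0.16 (R 4.3.3) with filterByExpr, TMM factors and the robust quasi-likelihood F test over all 9 libraries with 1 mean per group. The filter kept 12574 genes and 7 of the 8 genes, and Benjamini-Hochberg adjustment ran over all tested genes. The code was tested on simulated data. The biological coefficient of variation was 0.241. The precision of scarce genes is limited by counting as well as by replicate spread.

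Single values were compared by exact permutation over libraries. The alternatives were DESeq2 1.42.0, limma 3.58.1 on log2(FPKM + 1) and log2(FPKM + 0.1), the same with no filter, RLE factors, library totals, other count filters, only the 2 groups compared, a replicate block, lowess offsets for length (span 0.3), each library left out, and, chosen after seeing the data, offsets for length and GC content. Replicate pairs of each group differed by more than sampling noise, and most in TR11B_KO. Their chi-square per degree of freedom was 64.9 to 318.6 in TR11B_KO, 16.1 to 40.7 in OGT_KO and 9.6 to 38.3 in NC. The promoter and coding sequences came from RefSeq (GRCh38.p14) and GENCODE.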

Additional observations from a re-analysis of the deposited data

Results flagged for a closer look

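For 3 genes the effects of OGT_KO and TR11B_KO against NC had opposite signs, and the difference between the knockouts was called by edgeR's quasi-likelihood test. MT1X stood at −0.99 in OGT_KO and 0.35 in TR11B_KO, a difference of −1.34 on the log2 scale (adjusted p = 5.37e-05, edgeR). MT2A stood at −0.33 in OGT_KO and 0.85 in TR11B_KO, a difference of −1.18 (adjusted p = 0.000153, edgeR). SLC39A10 stood at 0.81 in OGT_KO and −0.64 in TR11B_KO, a difference of 1.45 (adjusted p = 0.00454, edgeR). Of these effects against NC, only MT1X in OGT_KO and MT2A in TR11B_KO were called. By edgeR, the adjusted p was 0.118 for MT1X in TR11B_KO and 0.175 for MT2A in OGT_KO. For SLC39A10 it was 0.0923 in OGT_KO and 0.169 in TR11B_KO, so neither effect was called. In each of the 3, all OGT_KO libraries lay on one side of all TR11B_KO libraries, with NC between. With the length correction, the values in TR11B_KO against NC were −0.44 for MT1X and 0.07 for MT2A, neither of them called. The opposite signs thus did not hold for MT1X and rested on an uncalled value for MT2A. The differences between the knockouts were then −0.77 for MT1X, −0.62 for MT2A and 0.92 for SLC39A10. For SLC39A10 that difference was not called once GC content, at 0.78 (adjusted p = 0.0625, edgeR), or the replicate block, at 0.97 (adjusted p = 0.0564, edgeR), was added to the length correction.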

How the results depend on the processing

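Of 462 recomputed values of the 7 genes over 22 alternatives, 417 kept their direction and side of the threshold, 5 lost a call, 25 gained one and 15 turned sign, none of the last a called value; the cause was not tested. MT1X in TR11B_KO against NC turned to −0.44 with the length offset, alone or with the replicate block, and −0.26 with length and GC. MTF1 between the knockouts turned to −0.22, −0.22 and −0.38 under the same 3, and SLC30A1 to −0.16, −0.15 and −0.30, and lay between −0.15 (without TR11B_KO replicate 2) and 0.40 with a library left out. SLC30A1 turned to −0.05 in OGT_KO with length and GC, and in TR11B_KO to −0.04 by limma on log2(FPKM + 0.1) and lay between −0.09 (without TR11B_KO replicate 1) and 0.44 with a library left out. MT1F turned to −0.05 in TR11B_KO with length and GC, and in OGT_KO lay between −0.43 and 0.09 (without OGT_KO replicate 2) with a library left out.

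The number of the 7 genes called in OGT_KO against NC was 1, and 2 by DESeq2, 2 by limma on log2(FPKM + 1), 3 with the length offset, 3 with length and GC, 4 from the 2 groups alone, and 1 to 4 with a library left out. In TR11B_KO it was 2, 3 by DESeq2, and 1 under each of the 3 length fits, and 2 to 3 with a library left out. Between the knockouts it was 3, and 4 by DESeq2, with RLE factors, with no filter or without TR11B_KO replicate 1, where MT1F was also called, and 4 with the length offset, library totals or any of the 3 limma fits, where MT1E was also called. Over all genes, OGT_KO against NC gave 2303 calls, 5095 from the 2 groups alone and 1072 to 4536 with a library left out. TR11B_KO against NC gave 3469, 2251 from the 2 groups alone, 1979 with the length offset and replicate block, and 1813 to 4463 with a library left out. Between the knockouts there were 4174, and 2401 to 5308 with a library left out.

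Log2 ratios of the summed metallothioneins were 0.56 in TR11B_KO against NC with library totals, and −0.80 with library totals and −0.85 from FPKM between the knockouts, against 0.72 and −1.06. The sum was not recomputed with a length correction. From counts in place of FPKM, the MT2A share differed by 8.44 percentage points in TR11B_KO against NC and −7.32 between the knockouts, against 5.18 and −4.22, and the MT1E share by −8.03 and 7.55, against −4.69 and 4.40. Same-numbered libraries of different groups correlated between −0.199 and 0.069 in their deviations, so the numbers were not shown to pair samples; the replicate block left the counts of the 7 genes at 1, 2 and 3 and gave 1609, 2612 and 3403 calls over all genes. At 17 to 146 counts a library, differences in MT1F, MTF1 and SLC39A10 are limited by depth.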
